A study of Mus musculus with 4 samples.

Results

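The genes examined here carry glucose into the cell, break it down to pyruvate and lactate, and answer to low oxygen. They were chosen by symbol from a list of glucose and lactate transporters, glycolytic enzymes, targets of the hypoxia-inducible factors (HIFs) and HIF hydroxylases. All 38 listed genes were found among the 22369 genes of the deposited table. RNA sequencing was done on 4 mouse libraries on day 9 of reprogramming, 2 labelled SOX17-V118M and 2 labelled SOX17 WT (wild type). SOX17-V118M is a missense form of SOX17, an endoderm and endothelium transcription factor. Every library came from OG2MEF cells, mouse embryonic fibroblasts with a green fluorescent reporter driven by Oct4 sequences. Per the labels, pMX retroviruses from PlatE cells were applied in a pair of rounds and carried Sox2 and Klf4, along with OCT4, SOX17, SOX17-V118M or GFP. The labels do not say which of these viruses entered each library beyond the SOX17 form. The cells then stayed in mouse embryonic stem cell medium, which is rich in glucose and holds pyruvate, LIF, beta mercaptoethanol and Vitamin C. Whether the replicates are separate cultures is not stated, and p-values here reflect only how far these libraries spread, which may be technical.

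Glycolysis turns glucose into pyruvate in the cytosol, and lactate dehydrogenase turns pyruvate into lactate, which monocarboxylate transporters carry out of the cell. When oxygen is present, prolyl hydroxylases of the EGLN family mark the HIF alpha subunits for destruction. When oxygen is low, the alpha subunits persist, pair with ARNT and bind hypoxia response elements beside genes for glucose transport, glycolysis and blood vessel growth. Fibroblasts on their way to pluripotency are known to shift from oxidative metabolism towards glycolysis, and HIF1A and HIF2A, the product of Epas1, are known to take part in that shift.

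The core of a hypoxia response element is ACGTG (or GCGTG), read on either strand. RefSeq promoter entries on GRCm38.p6 were matched by symbol for 35 of the 38 genes (all but Slc2a3, Epas1 and Ndrg1), and the 250 bases before the start nearest to that of the deposited table were searched. ACGTG, on either strand, was found in 18 of 35 members (51.4%), against 2708 of 13613 tested genes with an entry (19.9%). GCGTG was found in 20 of 35 members (57.1%), against 40.2% of those genes. The palindrome CACGTG, the E-box that MYC binds, holds the ACGTG core and was found in 5 of 35 members (14.3%), against 7.6%. The nearest RefSeq start lay more than 250 bases from the deposited one for 9 members: Eno2, Gapdh, Hif1a, Ldha, Ldhb, P4ha2, Pfkp, Slc16a3 and Vegfa. Over the other 26, ACGTG was found in 14 (53.8%), against 20.5% of 11094 genes matched as closely. A match is a string of letters and not a shown binding site. The 160 bases upstream of the RefSeq start are shown for 6 members because the same core recurs from glucose import to lactate and the hypoxia markers. Capitals mark ACGTG and its reverse complement CACGT, and each sequence is read 5′ to 3′ on the strand of its gene.
Slc2a1, chr4:119108585-119108744, plus strand: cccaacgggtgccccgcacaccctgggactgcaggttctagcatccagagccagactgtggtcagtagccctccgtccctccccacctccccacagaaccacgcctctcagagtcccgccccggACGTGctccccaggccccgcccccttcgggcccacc
Hk2, chr6:82774455-82774614, minus strand: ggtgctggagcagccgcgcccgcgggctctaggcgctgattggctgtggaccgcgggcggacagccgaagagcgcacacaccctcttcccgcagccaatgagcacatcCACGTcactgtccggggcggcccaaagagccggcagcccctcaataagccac
Pgk1, chrX:106186940-106187099, plus strand: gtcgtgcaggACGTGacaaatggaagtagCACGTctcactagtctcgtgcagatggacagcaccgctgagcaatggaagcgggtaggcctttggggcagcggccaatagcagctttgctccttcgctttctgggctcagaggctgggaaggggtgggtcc
Ldha, chr7:46845644-46845803, plus strand: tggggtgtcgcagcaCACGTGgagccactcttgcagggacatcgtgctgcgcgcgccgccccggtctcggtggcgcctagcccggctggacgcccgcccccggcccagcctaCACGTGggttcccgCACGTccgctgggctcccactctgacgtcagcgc
Bnip3, chr7:138909507-138909666, minus strand: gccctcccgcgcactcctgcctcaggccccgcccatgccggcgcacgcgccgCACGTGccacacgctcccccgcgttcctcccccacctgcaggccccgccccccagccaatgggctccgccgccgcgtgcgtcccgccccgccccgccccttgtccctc
Car9, chr4:43506866-43507025, plus strand: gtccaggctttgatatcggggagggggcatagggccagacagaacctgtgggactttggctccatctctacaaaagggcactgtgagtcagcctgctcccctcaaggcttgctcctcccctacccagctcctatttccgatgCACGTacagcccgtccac
The Ldha start in RefSeq lies 4329 bases from the start given in the deposited table, so the shown stretch is that of the RefSeq transcript. For Car9 and Slc2a1 that distance is 60 and 34 bases. The marked core of Car9 lies inside the gene as annotated, which starts at 43506966. That of Slc2a1 spans the annotated gene start, 119108711. Ldha held 5 starts of the core in its shown stretch, counting both strands, Pgk1 and Bnip3 held 2 each, and Slc2a1, Hk2 and Car9 held 1 each. A CACGTG palindrome counts as 2 starts. The median log2 fold change of V118M over wild type was -0.01 in the 18 members with ACGTG and -0.07 in the 17 without it.

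The deposited values are scores that the authors normalized and rounded, not read counts, and they are called values here. Library totals lay between 12855482 and 12859613, and once sorted, the 4 columns were identical at 76.7% of positions. Depth is therefore unknown, and values are compared between libraries within a gene, not between genes. Sox17 itself stood at 3016 and 2396 in the V118M libraries, against 3484 and 2880 in the wild-type libraries. V118M replicate 2 stood apart, with Pearson correlations of 0.954 to 0.964 to the other libraries over 12661 genes, against 0.986 to 0.990 among the rest. All 10 fibroblast markers were above 0 in every library, with 6 of 10 higher in V118M and 3 lower. Their sums were 127468 and 97880 in V118M, against 124869 and 123062 in wild type, and without Col3a1, which is a step lower in V118M replicate 2, they were 66282 and 68384 against 63683 and 61876. Most of that remainder was Col1a1, Col1a2 and Dcn, which also lie on the stepped part of the scale described below. Col1a2 was at 29492 in every library. Col1a1 had 14830 and 12776 in V118M, against 16310 and 11756 in wild type. Dcn had 11822 and 17630 in V118M, against 9022 and 11822 in wild type. These sums therefore do not show a difference in fibroblast RNA. Most pluripotent cell markers were near the bottom of the scale, with Dppa4 at 0 throughout. Their sums over 10 genes were 313 and 287 in V118M, against 182 and 244 in wild type. The largest part was Tdgf1, at 188 and 149 in V118M, against 83 and 126 in wild type. Fgf4 came next, at 66 and 72 in V118M, against 72 and 70 in wild type. Keratinocyte markers moved with the group, 8 of 10 being higher, with sums of 24439 and 26625 in V118M, against 18753 and 18362 in wild type. Leukocyte marker sums were 273 and 307 in V118M, against 666 and 418 in wild type, with 4 and 1 of 10 markers at 0 in V118M, against 0 and 2 in wild type. Endothelial sums were 1198 and 1162 in V118M, against 1269 and 1347 in wild type. Most of each endothelial sum was Tek, at 1054 and 933 in V118M, against 1103 and 1172 in wild type. The endothelial sums therefore mainly follow that gene. Erythroid sums were 90 and 126 in V118M, against 95 and 77 in wild type. The part of these cell types in the values below was not tested.

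The comparison of V118M with wild type asked whether the mutation alters the expression program of cells under reprogramming. No member of the glycolysis and hypoxia list passed an adjusted p of 0.05, and all 38 passed the filter on low values. Of all 19547 genes tested, 0 passed (0.00%), with 784 at an unadjusted p under 0.05 (limma, lowest adjusted p = 0.205). At an unadjusted p under 0.05 there was 1 member, Slc2a3, against 4.01% of genes tested. It was lower in V118M, as were 1.70% of genes tested, and 0 members were higher at that p, against 2.31%. Group means on the log2 scale were lower in V118M for 22 members (57.9%, against 48.2% of genes tested), higher for 13 (34.2%, against 49.2%) and equal for Pkm, Ldha and Eno1. The direction turned with 1 library: without V118M replicate 1, 21 members were higher and 14 lower, against 52.9% of genes higher, and without V118M replicate 2, 7 were higher and 28 lower, against 46.5% higher. The median log2 fold change on the log2(value + 1) scale was -0.035 over the members and 0.000 over all genes tested. The groups did not overlap in 10 members (26.3%), against 28.0% of genes tested and 31.2% of the 12661 genes whose mean log2 value reached 5. Of these, 8 were lower in V118M (21.1%, against 14.8%) and 2 were higher (5.26%, against 13.2%). The 95% interval of the change lay within 2-fold in either direction for 36 members (94.7%), against 78.9% of the 12661 genes whose mean log2 value reached 5, and 51.4% of all genes tested. The exceptions were Pgk1 and Adm. On the stepped part of the scale described below, where 11 members lay in every library, these intervals do not bound a change in RNA.

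**Figure D1:**
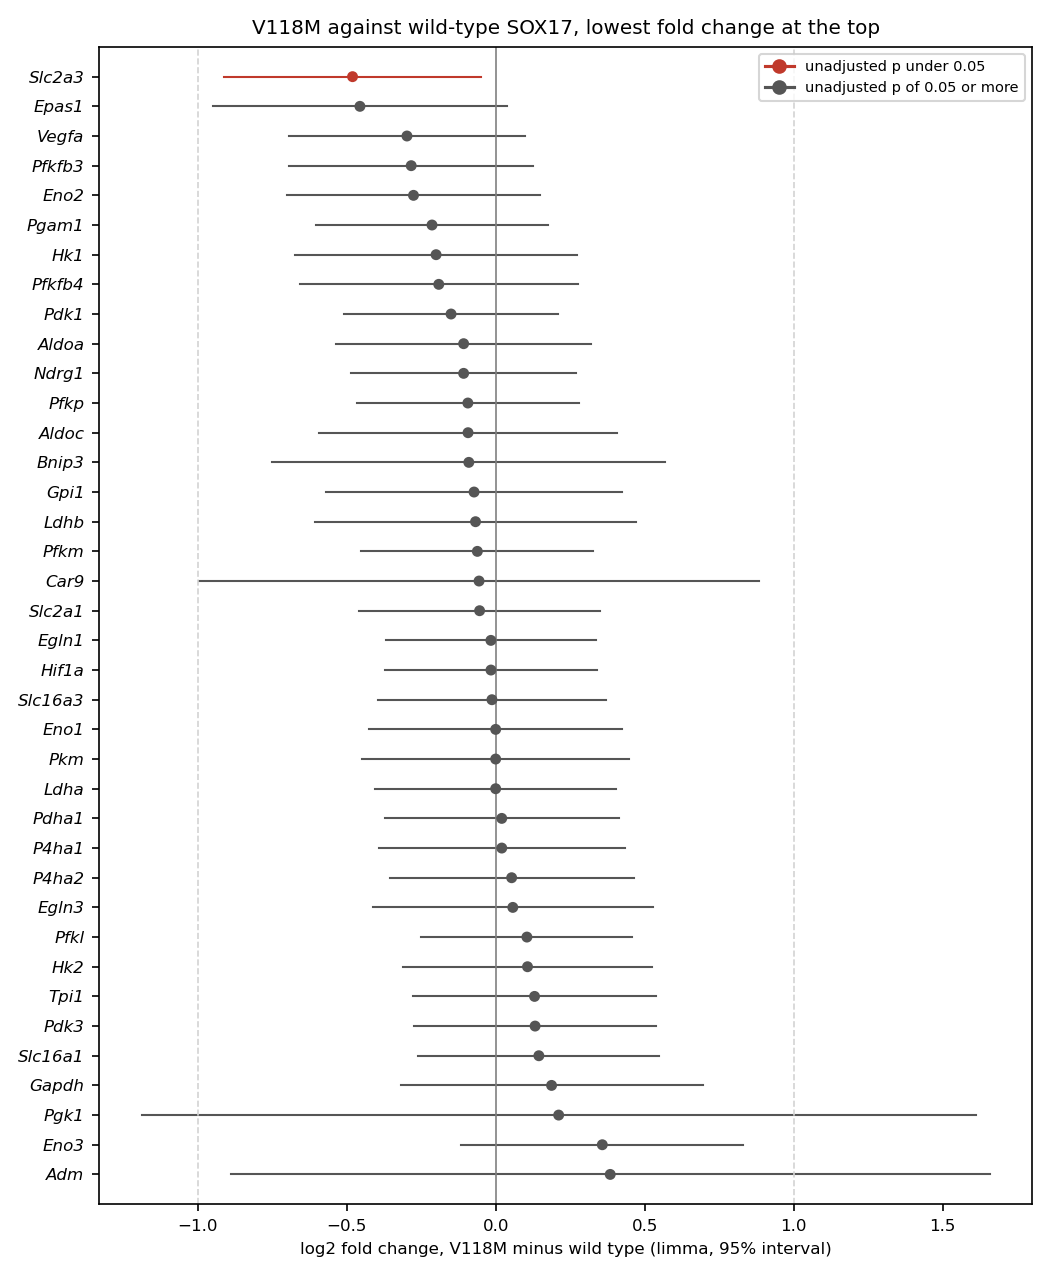
The log2 fold change of each of the 38 members, V118M minus wild type, is drawn as a point on the horizontal axis with its 95% interval from limma (2 libraries a group), ordered from the lowest at the top. Dashed lines mark 2-fold, Slc2a3 is the member at an unadjusted p under 0.05, and only the intervals of Pgk1 and Adm reach past the dashed lines.

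Glucose enters fibroblasts mainly through GLUT1, the product of Slc2a1, while Slc2a3 encodes GLUT3, a high-affinity carrier of neurons and early embryos. Slc2a3 (chromosome 6, 122727809 to 122801640, minus strand) stood at 208 and 235 in the V118M libraries, against 298 and 320 in the wild-type libraries. Both V118M values lay below both wild-type values, and the means were 221.5 ± 19.1 in V118M and 309 ± 15.6 in wild type (SD, n = 2 each). The log2 fold change was -0.48 ± 0.17 (standard error; 95% interval -0.91 to -0.05), with an unadjusted p of 0.0353 that did not survive adjustment (limma adjusted p = 0.951). With V118M replicate 2 left out it was -0.57 (p 0.0440), and with V118M replicate 1 left out -0.39, where the unadjusted p was 0.0724, and that p was 0.166 and 0.251 without wild-type replicate 1 and 2 (limma). With the dependence on transcript length and base composition (GC) taken out of each library it was -0.37, with an unadjusted p of 0.136 (limma). In bulk RNA, fewer cells of a type that expresses a gene and less RNA per cell cannot be told apart.

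Slc2a1 (chromosome 4, 119108711 to 119137983) had 7750 and 8714 in V118M, against 8352 and 8714 in wild type. The higher V118M library equalled the higher wild-type library, so the groups overlapped, with a log2 fold change of -0.05 ± 0.16 (standard error). The lactate exporters overlapped as well. Slc16a1, which encodes the carrier MCT1, had 2018 and 2387 in V118M, against 2050 and 1922 in wild type. Slc16a3, which encodes MCT4, the HIF-responsive exporter of glycolytic cells, had 3342 and 3059 in V118M, against 3372 and 3085 in wild type. Of these transporters Slc16a1 had a log2 fold change of 0.14 ± 0.16 (standard error; limma unadjusted p = 0.403).

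Hexokinases trap glucose as its phosphate. Hk1, the form of most tissues, had 3660 and 2793 in V118M, against 3732 and 3614 in wild type. Hk2, the inducible form, had 3110 and 3732 in V118M, against 3056 and 3275 in wild type. V118M replicate 2 was thus the lowest of the 4 libraries for Hk1 and the highest for Hk2, whereas V118M replicate 1 lay inside the wild-type range for both genes. Without V118M replicate 2 the log2 fold changes were -0.005 for Hk1 and -0.02 for Hk2. Gpi1, the isomerase of the next step, had 19002 in both V118M libraries, between the wild-type values of 17589 and 22700.

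Phosphofructokinase commits sugar to glycolysis, and its liver (Pfkl), muscle (Pfkm) and platelet (Pfkp) subunits were all present. Pfkl had 3020 and 2991 in V118M, against 2772 and 2818 in wild type. Its V118M values lay above both wild-type values, by a log2 fold change of 0.10 ± 0.14 (standard error; limma unadjusted p = 0.486). Pfkm had 883 and 1014 in V118M, against 956 and 1020 in wild type, and Pfkp had 3278 and 3142 in V118M, against 3278 and 3576 in wild type. Neither of these separated the groups. In this upper stretch of the pathway the smallest unadjusted p was that of Hk1 (0.329, limma), at a log2 fold change of -0.20 ± 0.19 (standard error).

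The PFKFB enzymes make and remove the sugar bisphosphate that activates phosphofructokinase, and both genes are known HIF targets. Pfkfb3 (chromosome 2, 11471433 to 11554077) had 758 and 631 in V118M, against 852 and 832 in wild type. The groups did not overlap, and the log2 fold change was -0.28 ± 0.16 (standard error; limma unadjusted p = 0.137). Pfkfb4 had 467 and 362 in V118M, against 475 and 464 in wild type, so the groups overlapped and V118M replicate 2 alone was low. Its log2 fold change was -0.01 without V118M replicate 2 and -0.37 with replicate 1 of that group left out.

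**Figure D2:**
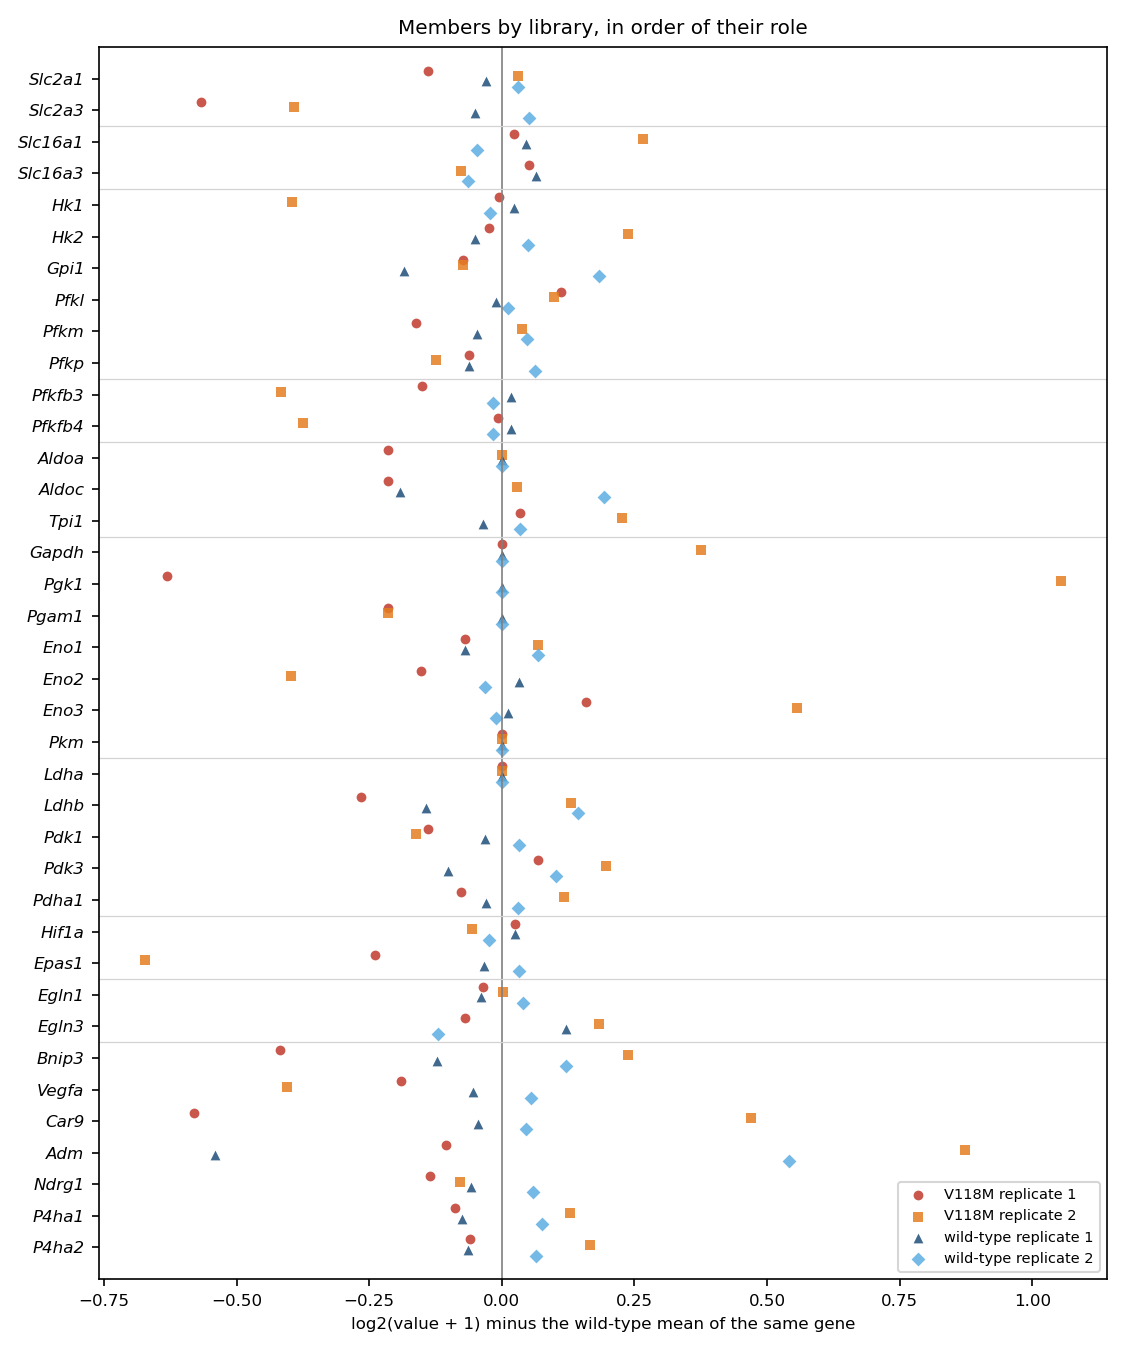
Each row is a member in the order of its role, and each point is a library, placed by log2(value + 1) minus the wild-type mean of the same gene (horizontal axis). V118M replicate 2 is farthest from the median of the 4 libraries in 17 members (44.7%), against 56% of all genes with unequal values, and Pgk1 shows the widest gap between the V118M replicates.

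At the top of the value scale the normalization leaves steps rather than a continuous range, and it does so without a break for the first 30 steps, down to a value of 5321. There 11 members lay in every library, 8 of them above 10000 and Slc2a1, Tpi1 and Egln3 below that. The top value, 61186, belonged to 10 genes in each library, the next 10 lay between 29440 and 29496, and the following 10 between 22697 and 22758. A difference between such values is therefore a move of 1 or more steps and its size says little about the size of a change in RNA. Many of these enzymes also have processed pseudogenes in the mouse, and how reads were divided between copies is not given in the sources used.

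Pkm, the pyruvate kinase gene, was at 61186 in all 4 libraries, and Ldha, the lactate dehydrogenase subunit that favours lactate, was at 19004 in all 4. A difference in either gene that did not move it to another step would be out of sight. Gapdh, often used as a reference transcript, had 22718 and 29460 in V118M, against 22718 in both wild-type libraries. It stood on the third step in 3 libraries and on the second in V118M replicate 2. Pgk1 (chromosome X, 106187100 to 106203699), the kinase of the first step that yields ATP, had 19012 and 61186 in V118M, against 29460 in both wild-type libraries. The V118M libraries lay on opposite sides of wild type, on step 4 and step 1 against step 2, so no direction can be given. Its log2 fold change was 0.21 ± 0.55 (standard error), and it was -0.63 without V118M replicate 2 and 1.05 with replicate 1 of that group left out.

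Pgam1, the phosphoglycerate mutase, had 11785 in both V118M libraries, against 13666 in both wild-type libraries. That places it on step 10 in V118M, against step 8 in wild type, at a log2 fold change of -0.21 ± 0.15 (standard error; limma unadjusted p = 0.221). Aldoa, the main aldolase, had 12776 and 14830 in V118M, against 14830 in both wild-type libraries. Eno1, the common enolase, had 14818 and 16297 in V118M, the same 2 values as in wild type. Eno1b, a near-identical copy of Eno1 with its own row in the table, had 12759 and 13641 in V118M, against 12759 in both wild-type libraries, so reads could be divided between the 2 genes and the Eno1 values are uncertain.

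**Figure D3:**
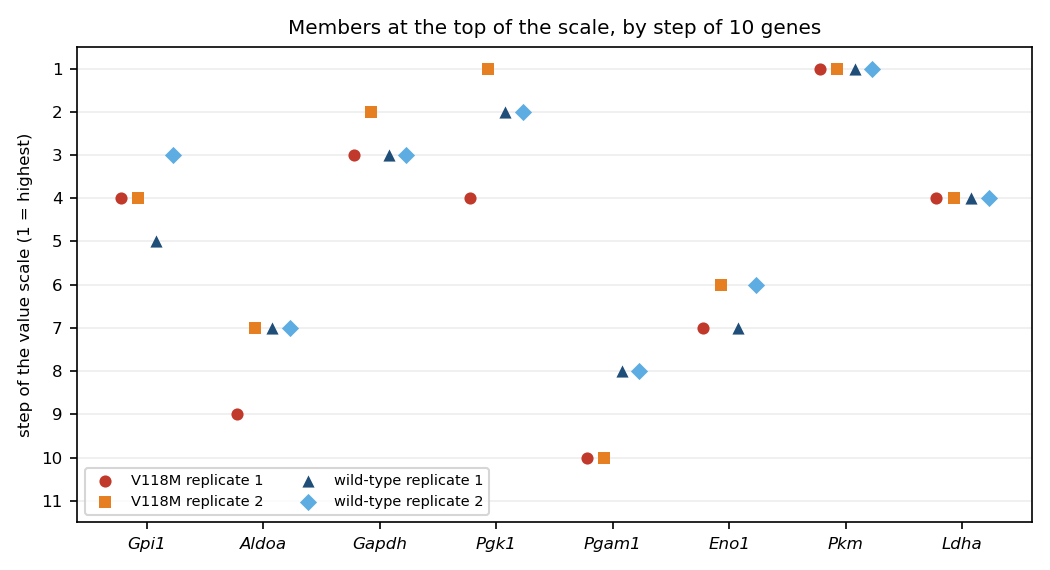
The vertical axis gives the step of the value scale on which each of 8 members sits, in steps of 10 genes with the highest values as step 1, and each point is a library. Pkm and Ldha keep 1 step in all 4 libraries, Pgam1 is 2 steps lower in both V118M libraries than in both wild-type libraries, and Pgk1 takes step 4 and step 1 in V118M against step 2 in wild type.

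Several isozymes lay below that range. Eno2, the neuronal enolase, had 364 and 307 in V118M, against 414 and 396 in wild type. Eno3, the muscle enolase, had 718 and 946 in V118M, against 648 and 638 in wild type. The groups did not overlap for either gene and lay in opposite directions. The log2 fold change was -0.28 for Eno2 and 0.36 for Eno3, with standard errors of 0.17 and 0.19 and limma unadjusted p of 0.158 and 0.110. Eno3 had the smallest p of the lower glycolytic enzymes, and its change was 0.16 without V118M replicate 2 and 0.56 with replicate 1 of that group left out. Aldoc, the brain aldolase, had 1690 and 2002 in V118M, against 1717 and 2241 in wild type. Tpi1, the triose phosphate isomerase, which lies on the stepped part of the scale, had 7328 and 8363 in V118M, against 6980 and 7328 in wild type. Both overlapped, and Tpi1 had the smallest p among the aldolases and the isomerase (limma unadjusted p = 0.452), with a log2 fold change of 0.13 and a standard error of 0.16.

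Pyruvate either becomes lactate or enters the mitochondrion through the pyruvate dehydrogenase complex, which PDK kinases switch off. Pdk1, the kinase that HIF induces, had 2846 and 2802 in V118M, against 3063 and 3204 in wild type. The V118M values lay below both wild-type values, with a log2 fold change of -0.15, a standard error of 0.14 and a limma unadjusted p of 0.335. Pdk3, a further kinase of this family, had 542 and 593 in V118M, against 482 and 555 in wild type. Pdha1, the catalytic alpha subunit of the complex, had 3740 and 4283 in V118M, against 3865 and 4029 in wild type. Ldhb, the lactate dehydrogenase subunit that favours pyruvate, had 328 and 432 in V118M, against 357 and 436 in wild type. The groups overlapped for Pdk3, Pdha1 and Ldhb.

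The oxygen-sensing genes themselves differed in how close the groups lay. Hif1a, which encodes the widely expressed alpha subunit, had 1908 and 1804 in V118M, against 1908 and 1844 in wild type. Its log2 fold change was -0.02, with a 95% interval of -0.37 to 0.34. Epas1 (chromosome 17, 86753700 to 86833410), which encodes the alpha subunit of endothelium and stroma, had 822 and 608 in V118M, against 948 and 992 in wild type. The groups did not overlap, with means of 715 ± 151 in V118M and 970 ± 31.1 in wild type (SD, n = 2 each). The log2 fold change of Epas1 was -0.46 ± 0.19 (standard error) and a 95% interval of -0.95 to 0.04 (limma unadjusted p = 0.0640, adjusted p = 0.951). It was -0.24 without V118M replicate 2 and -0.67 with replicate 1 of that group left out, and -0.33 with the length and GC trend removed, where the unadjusted p was 0.0305 (limma). That p was the lowest among the alternatives that kept every library, and the highest was 0.123, with no filter on low values (limma). Of 9 endothelial markers tested, 5 were lower in V118M (55.6%, against 48.2% of genes tested) and 3 were higher, and Emcn was at 0 in all libraries. Their part in the Epas1 value was not tested.

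HIF protein is governed after translation, so RNA of its subunits does not show its activity. Egln1, the main prolyl hydroxylase, had 1462 and 1500 in V118M, against 1457 and 1539 in wild type. Egln3, the hydroxylase that HIF itself induces, had 8364 and 9960 in V118M, against 9537 and 8066 in wild type. The wild-type range of Egln1 enclosed both V118M values, and its 95% interval ran from -0.37 to 0.34. Egln3 overlapped too, with the smaller p of the pair (limma unadjusted p = 0.768) at a log2 fold change of 0.06 and a standard error of 0.18.

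Of the 7 HIF-responsive genes, 3 were higher and 4 lower in V118M, with a median log2 fold change of -0.06. Vegfa (chromosome 17, 46016993 to 46032369), the vessel growth factor, had 1861 and 1602 in V118M, against 2044 and 2204 in wild type. Ndrg1, a stress-induced gene, had 4436 and 4610 in V118M, against 4680 and 5072 in wild type. The groups did not overlap for these 2 genes. Vegfa had the smallest p of the 7, with a log2 fold change of -0.30, a standard error of 0.16 and a limma unadjusted p of 0.113.

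For the remaining HIF-responsive genes the groups overlapped. Car9, the carbonic anhydrase used as a hypoxia marker, had 128 and 266 in V118M, against 186 and 198 in wild type. The 2 V118M libraries thus lay on either side of wild type, and its log2 fold change was -0.58 without V118M replicate 2 and 0.47 with replicate 1 of that group left out. Bnip3, which directs mitochondria to autophagy, had 3224 and 5076 in V118M, against 3958 and 4685 in wild type, again with V118M on either side. Adm, the vasodilator adrenomedullin, had 68 and 135 in V118M, against 50 and 107 in wild type. The values of the groups interleaved, and the 95% interval of the Adm change ran from -0.89 to 1.66. P4ha1 had 3122 and 3630 in V118M, against 3151 and 3496 in wild type, and P4ha2 had 610 and 714 in V118M, against 608 and 665 in wild type. These encode collagen prolyl hydroxylase subunits that HIF induces, and both overlapped.

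**Figure D4:**
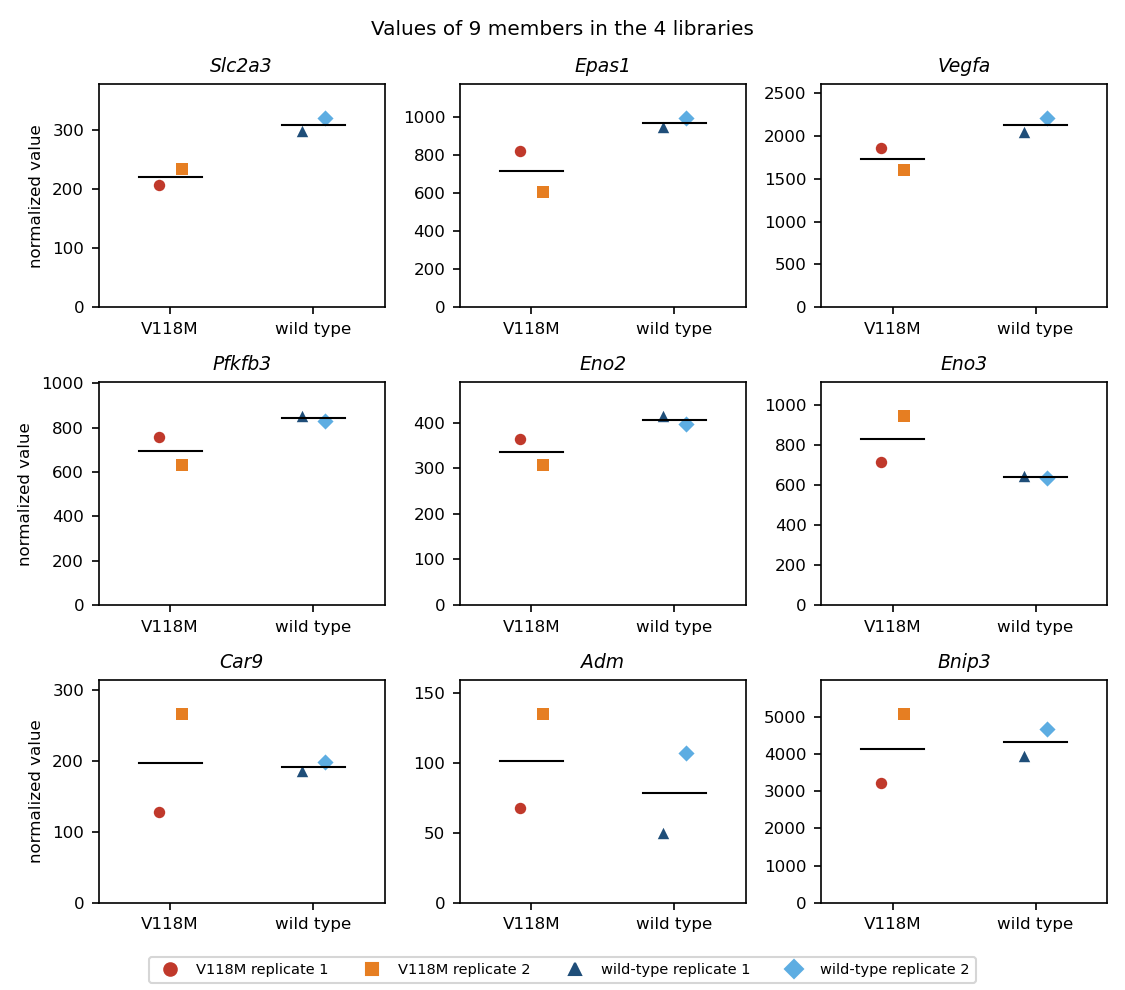
Normalized values (vertical axes from 0) of 9 members are shown for the 2 V118M and the 2 wild-type libraries, with a bar at each group mean. Slc2a3, Epas1, Vegfa, Pfkfb3 and Eno2 lie lower in both V118M libraries and Eno3 lies higher, whereas the V118M libraries lie on either side of the wild-type libraries for Car9 and Bnip3 and the groups interleave for Adm.

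The V118M replicates differed from each other by a median of 0.216 log2 units over the members, against 0.084 between the wild-type replicates. The V118M pair was the wider in 24 of 38 members (63.2%), against 78.1% of the 12661 genes whose mean log2 value reached 5. Pkm, Ldha, Pgam1 and Eno1, on the stepped scale, differed equally in both pairs and count as not wider, which lowers the member share. The median size of the change between groups was 0.106 log2 units over the members and 0.167 over those 12661 genes. Relative to the wild-type mean, the member median was -0.075 in V118M replicate 1 and 0.030 in V118M replicate 2, against 0.000 and 0.034 over all genes tested. V118M replicate 2 lay above the mean of the other libraries in 22 members, whose median transcript length was 2724 bases, and below it in 14, with a median of 4306.5 bases. Spearman's rho between that difference and the length of the longest annotated transcript was -0.547 over the 38 members and -0.550 over 12651 genes, a description in which all points share the same 4 libraries. With the length and GC trend removed, 22 members were lower (57.9%, against 52.2% of genes tested) and 16 higher (42.1%, against 47.8%). Those lower include Pkm, Ldha and Eno1 (-0.007, -0.10 and -0.04), whose group means were equal before, so their sign comes from the removed trend alone. With that trend removed, the groups did not overlap in 14 members (36.8%, against 35.5%), of which 12 were lower (31.6%, against 18.7%) and 2 higher (5.26%, against 16.8%).

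Of the other genes of these pathways, 0 passed an adjusted p of 0.05 over all genes tested. At an unadjusted p under 0.05 there were 3 of 150, a smaller share than the 4.01% of genes tested, and some genes stand in more than 1 list. All 3 were lower in V118M, as were 1.70% of genes tested. Of 22 tested further isoforms of transporters and glycolytic enzymes, 0 had an unadjusted p under 0.05, as did 0 of 11 pentose phosphate genes, 0 of 10 lactate and shuttle genes and 0 of 15 further HIF pathway genes. Among 14 glycogen genes there was 1, Pygl: this liver glycogen phosphorylase gene had 1311 and 1560 in V118M, against 2044 and 1950 in wild type (log2 fold change -0.48, standard error 0.16, limma unadjusted p = 0.0275). Among 37 genes of pyruvate entry and the citric acid cycle there was 1: the kinase gene Pdk2 had 704 and 514 in V118M, against 835 and 932 in wild type (log2 fold change -0.55, standard error 0.20, limma unadjusted p = 0.0408). Among 43 further HIF-responsive genes there was 1: Pam, which encodes an enzyme that amidates peptides, had 4192 and 3610 in V118M, against 5321, on step 30, in both wild-type libraries (log2 fold change -0.45, standard error 0.16, limma unadjusted p = 0.0332). Median log2 fold changes were -0.11 for the further isoforms, 0.05 for pentose phosphate genes, -0.12 for glycogen genes, 0.06 for pyruvate entry and the citric acid cycle, 0.06 for lactate and shuttle genes, 0.05 for the HIF pathway and -0.06 for further HIF-responsive genes, beside 0.000 over all genes tested.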

How the data were processed

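Per the labels' protocols, TRIzol RNA went into TruSeq Nano libraries. The submitters' processing notes name FastQC, Bowtie2, RSEM, DESeq2 and mm10, with no role or version. The deposited score of each gene is a whole number; from the values themselves, the columns were brought to nearly the same distribution before they were deposited, and neither the method nor the use of strand is given in the sources used here. Values were transformed as log2(value + 1), which understates changes of low genes. The 19547 genes reaching 1 in 2 or more libraries were tested. limma 3.58.1 in R 4.3.3 was fitted on all of them with group as the only term and the trend and robust options, two-sided, with Benjamini-Hochberg adjustment. Fold changes are V118M minus wild type. Gene coordinates (GRCm38, also called mm10) and transcript lengths came from GENCODE M21. The members and lists were chosen with earlier results of these data known. All members are named, with statistics for those at an unadjusted p under 0.05 and the smallest p of each role; those of further members were added after their values were seen. Genes of the other pathway lists were named at an unadjusted p under 0.05, and marker lists are given by their sums and counts. An exact two-sided permutation test of 2 against 2 libraries cannot go below 0.333, so the planned test on the summed members is not reported.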

Additional observations from a re-analysis of the deposited data

How the results depend on the processing

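The 13 alternatives left 0 members passing an adjusted p of 0.05. Over all genes, 0 passed (784 at an unadjusted p under 0.05), against 3 with the replicate block and 1 with the block and the length and GC trend removed (limma). With array quality weights, 588 of all genes had an unadjusted p under 0.05 (limma). Those weights were 0.429 for both V118M libraries and 2.33 for both wild-type libraries, so they did not set V118M replicate 2 apart from V118M replicate 1. Members at an unadjusted p under 0.05 numbered 1, against 4 with no filter on low values, 2 with the replicate block (Epas1 and Slc2a3), 2 with array quality weights and 0 to 10 with 1 library left out: 10 without V118M replicate 1, 6 when V118M replicate 2 was left out, and 0 without either wild-type library. Over all genes that count was 784, against 1441 with no filter, 1204 with the replicate block, 1408 with the block and the trend removed, and 221 to 5096 with 1 library left out. Leaving out 1 library moved the members' median log2 fold change between -0.093 (without wild-type replicate 1) and 0.030 (without V118M replicate 1), and the number of members higher in V118M between 7 (V118M replicate 2 left out) and 21 (V118M replicate 1 left out), against 13. In 18 members the change took the opposite sign under at least 1 alternative, and the cause was not tested. Pkm, Ldha and Eno1, whose group means were equal, could not enter that count. No such count was made over all genes, so it is not read as a trait of the members. Fits that leave a group with 1 library assume that it varies like the other group. Without either V118M library, the count at an unadjusted p under 0.05 rose over all genes as well as among the members. Without either wild-type library it fell in both. The member counts of these fits therefore moved with the background and are not read as a result of the members. Same-numbered libraries share only a number in the labels; their deviations from the group means correlated at 0.303 over 12661 genes, and the block left no member past an adjusted p of 0.05. Depth is unknown, and the top steps of the scale would hide any change of Pkm or Ldha that left the gene on its step.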

Other observations

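Among the HIF-responsive members, libraries of the same number lay alike in both groups, a pattern chosen after the values were seen. The library numbered 2 was the higher of its pair, in V118M and in wild type, for 6 of the 7: Bnip3, Car9, Adm, Ndrg1, P4ha1 and P4ha2. It was so for 17 of all 38 members (44.7%), Slc2a1, Slc2a3, Hk2 and Aldoc among them, against 33.1% of the 12661 genes whose mean log2 value reached 5. The library numbered 2 was the lower in both groups for 6 members (15.8%), against 31.8% of those genes. Adm, the vasodilator peptide gene, showed it most plainly, at 68 and 135 in V118M, against 50 and 107 in wild type. Among further HIF-responsive genes it was the higher in both groups for 16 of 43 (37.2%), and among genes of pyruvate entry and the citric acid cycle for 20 of 37 (54.1%). It was so for 5 of 11 pentose phosphate genes (45.5%), 5 of 14 glycogen genes (35.7%), 5 of 15 HIF pathway genes (33.3%), 3 of 10 lactate and shuttle genes (30%) and 5 of 22 further isoforms of transporters and glycolytic enzymes (22.7%). It was the lower in both groups for 6 of the 14 glycogen genes (42.9%) and 6 of the 22 further isoforms (27.3%). The labels do not say what the numbers mark, and no test was made.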
